A study of Mus musculus with 25 samples.

Results

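Spermatocytes were selected among the cells of testes that lack Mlh3, which encodes a MutL protein of meiotic recombination. A barcode was taken as one of these cells if it held at least 500 unique molecular identifiers (UMIs, each a transcript counted once), at most 10% of them on mitochondrial genes (named mt-), and at least 3 UMIs on Piwil1, Psma8, Mtl5, Tex101, Pou5f2, Tdrd1 and Gml that made up at least 0.2% of its UMIs. The members were therefore chosen by measured values, those of these 7 genes. The rule took 1053 of the 11,210 barcodes in the 6 Mlh3 libraries (9.39%), and 2627 of the 48,642 barcodes in the 25 libraries of the series. In this series mouse testes and sorted germ cells were profiled by Drop-seq, a droplet method that counts the 3′ ends of transcripts in single cells.

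The Mlh3 libraries came from males labelled Mlh3-/- on a B6;129 background, aged 3 months 22 days (library 1), 8 months 30 days (libraries 2 and 3) and 2 months 21 to 23 days (libraries 4, 5 and 6). The males were homozygotes bred from heterozygotes, and the labels name no restriction of the loss to a cell type. They are compared with whole testes of C57BL/6 wild-type males between 3 months 1 day and 9 months 14 days of age (libraries 3 to 11), of Cul4a-/- males on the B6;129 background (1 month 18 days and 1 month 21 days), and of C57BL/6 males that carry the CNP eGFP BAC TRAP transgene (2 months 14 days and 2 months 16 days). These ages are as labelled, and the study's own list of libraries gives those of the Cul4a and CNP males the other way round. All of these testes were dissociated mechanically. Wild-type libraries 1 and 2 were dissociated with enzymes and held 1 and 5 barcodes that met the rule, and they were added only in an alternative for the share of barcodes. Genotype and background cannot be told apart between the Mlh3 and wild-type libraries, and the Cul4a libraries are the ones that share the labelled background of Mlh3. The study itself names the Mlh3 line B6.129 and the Cul4a line B6;129. Whether these backgrounds are alike is therefore not certain. Whether each library came from a different male is not stated for the whole series, so p-values measure the spread between libraries.

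In the first meiotic prophase, homologous chromosomes pair at the leptotene and zygotene stages, are joined along their length by the synaptonemal complex at pachytene, and separate at the first division. MLH3 acts in crossover formation, and spermatocytes without it pass through pachytene but do not complete the first division, so spermatids are not formed. Pachytene spermatocytes transcribe a programme of piRNA pathway, metabolic and flagellar genes, part of which is driven by the transcription factor A-MYB, the product of Mybl1, and they silence the X and Y chromosomes.

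The rule rests on genes of this programme. Piwil1 encodes a piRNA-binding Argonaute protein and Tdrd1 a Tudor protein of the same pathway, Psma8 a subunit of the testis proteasome, Mtl5 (Tesmin) a DNA-binding protein of germ cells, Pou5f2 a POU transcription factor, and Tex101 and Gml surface proteins anchored by a lipid. A-MYB belongs to a family that binds the core motifs AACTG and AACGG, and of the 5 rule genes found in the promoter windows of RefSeq (GRCm38.p6) 4 held one of them, on either strand, in the 250 bases before the transcription start. These stretches are shown because the rule genes choose the cells, each with the motif in capitals:
Piwil1 (chr5:128736136-128736215, plus strand, motif 73 bases before the start): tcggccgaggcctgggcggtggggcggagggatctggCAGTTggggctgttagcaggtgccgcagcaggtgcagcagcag
Mtl5 (chr19:3388777-3388856, plus strand, 25 bases before): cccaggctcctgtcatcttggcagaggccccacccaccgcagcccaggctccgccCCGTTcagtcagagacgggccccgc
Tex101 (chr7:24672194-24672273, minus strand, 186 bases before): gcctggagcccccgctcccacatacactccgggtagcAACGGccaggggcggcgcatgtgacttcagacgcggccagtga
Pou5f2 (chr13:78024682-78024761, plus strand, 183 bases before): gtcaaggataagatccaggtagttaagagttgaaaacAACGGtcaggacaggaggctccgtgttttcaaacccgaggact
The window of Tdrd1 held none. The same letters occurred in 48.8% of all 27,025 promoter windows, so a match is a description and not a binding site.

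The 1053 members held 5,454,830 UMIs, with a median of 2000 UMIs and 1323 genes per cell, and from 502 to 143,411 UMIs in a single cell. Piwil1 took 33.4% of the UMIs on the rule genes, Psma8 18.9%, Mtl5 15.9%, Tex101 14.9%, Tdrd1 8.88%, Gml 4.89% and Pou5f2 3.15%. Piwil1, which chose the cells, stood at 796, 2087, 1370, 1828, 1591 and 1326 counts per 1,000,000 UMIs (CPM) in libraries 1 to 6, beside 338 CPM in the other Mlh3 barcodes of sufficient quality. The label was checked against genes outside the rule. Sycp3, a component of the chromosome axis, averaged 1146 ± 386 CPM (SD, n = 6 libraries) in the members and 452 CPM in the other Mlh3 barcodes, and Sycp1, of the central part of the synaptonemal complex, averaged 1256 ± 411 CPM in the members against 291 CPM in the others. Ldhc, the lactate dehydrogenase of male germ cells, differed little between members (mean 6479 CPM) and other barcodes (7108 CPM).

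The limits of the rule cut through a range of levels. The 155 members with exactly 3 UMIs on the rule genes held 542 CPM of Sycp3, 7698 CPM of Ldhc and 542 CPM of the Leydig cell gene Insl3. The 410 barcodes left out with 2 such UMIs held 608, 6036 and 1384 CPM of these genes, and barcodes with 0 such UMIs held 320, 3641 and 3162 CPM. A further 310 barcodes had at least 3 such UMIs but less than 0.2%. They were deep, with a median of 5146.5 UMIs, and had a median rule-gene share of 0.137%. Under a limit of 5 UMIs and 0.5%, 312 members (29.6%) remained.

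Some properties of the libraries touch the results. Members of Mlh3 libraries 1 to 3 had higher mitochondrial shares (medians of 4.12 to 5.59%) than those of libraries 4 to 6 (1.36 to 3.16%) and of wild-type (0.508 to 1.62%). They also held more UMIs of X-linked and somatic genes, as described below, so results were computed a second time with libraries 4 to 6 alone. The summed counts of members ranged from 109,107 to 2,426,209 UMIs per Mlh3 library and from 89,786 to 266,412 per wild-type library. No barcode sequence occurred among the members of more than 1 library. Of 5420 Mlh3 barcodes with at least 500 UMIs, 2857 were left out for their mitochondrial share, between 5.11 and 83.3% per library.

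Cells that met the rule took a larger share of Mlh3 than of wild-type barcodes. They made up 35.4, 33.1, 45.9, 43.4, 41.6 and 43.3% of the barcodes of sufficient quality in libraries 1 to 6, which were 171 of 483, 43 of 130, 61 of 133, 167 of 385, 229 of 550 and 382 of 882 barcodes. In the 9 wild-type libraries the same rule took 3.25 to 7.39% (median 4.04%), 690 of 16,552 barcodes in all. Every Mlh3 library lay above every wild-type library. The means were 40.4 ± 5.05% (SD, n = 6) and 4.63 ± 1.58% (n = 9), a difference of 35.8 percentage points. It is given without a test, since the rule that chose the cells sets the share. Barcodes left out for few UMIs or for their mitochondrial share lower the values and the difference. Of all barcodes in a library, the members made up 33.6, 14.4, 7.63, 11.3, 5.37 and 9.89% in Mlh3 and 1.91 to 3.65% in wild-type, with means of 13.7 ± 10.2% and 2.73 ± 0.537%. A share depends on the other cells of a testis too, and their part in the difference was not tested. The Cul4a libraries gave 15.3 and 11.1% and the CNP libraries 11.6 and 18.8%.

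**Figure D1:**
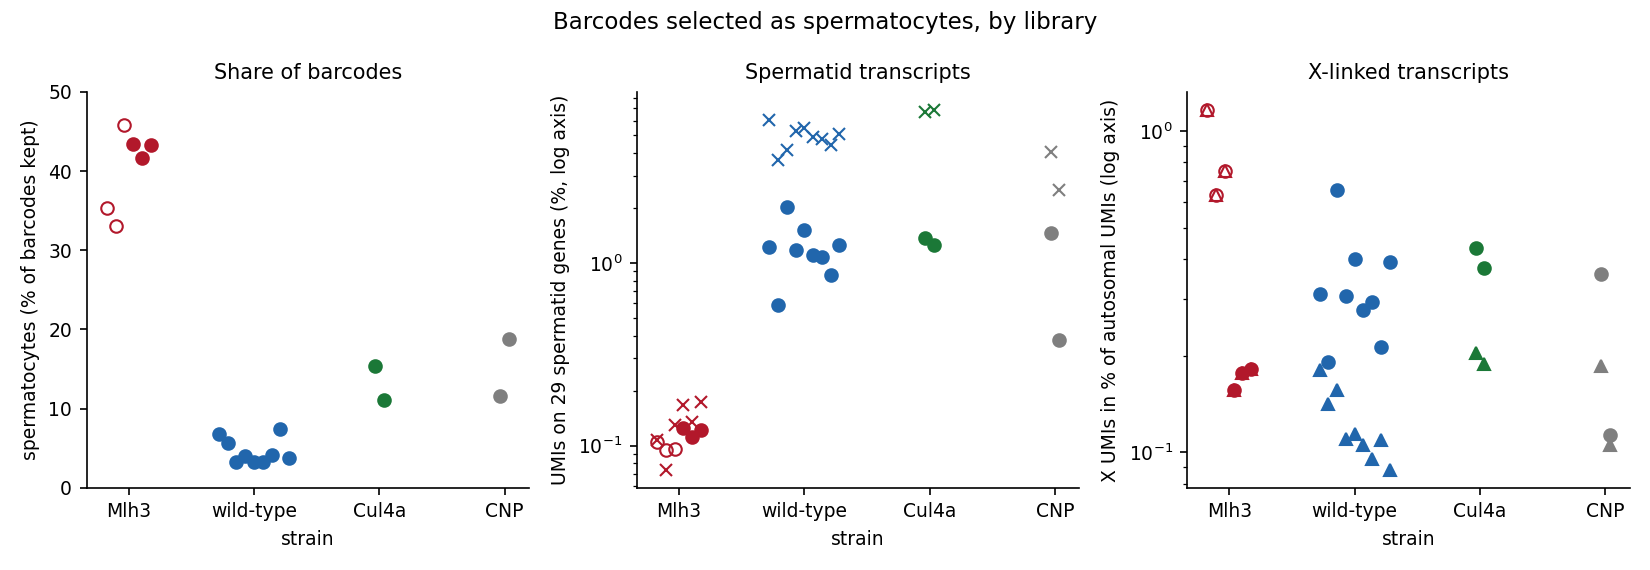
Percentage of barcodes of sufficient quality that met the rule (left), percentage of UMIs on 29 spermatid genes (middle, log axis, circles for members and crosses for the other barcodes) and X-linked UMIs in percent of autosomal UMIs (right, log axis, circles for all members and triangles for members with at most 1% spermatid UMIs), one point per library and strain, with Mlh3 libraries 1 to 3 open and 4 to 6 filled. Mlh3 members hold between 0.0944 and 0.125% spermatid UMIs against 0.585 to 2.01% in wild-type members, and Mlh3 libraries 1 to 3 lie above libraries 4 to 6 in X-linked UMIs.

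Transcripts of spermatids were close to absent. The list of 29 genes of the acrosome and of elongating spermatids took 0.0944 to 0.125% of the members' UMIs in the 6 Mlh3 libraries, and 0.585 to 2.01% in wild-type members selected by the same rule. The means were 0.109 ± 0.0126% (n = 6) and 1.20 ± 0.400% (n = 9), and the groups did not overlap (difference of -1.09 points, two-sided exact permutation test over libraries, p = 0.0002, the smallest the 5005 splits can give, 0.0004 after adjustment over 4 tests). Of the 6396 UMIs of these genes in Mlh3 members, 5139 came from Odf2, which encodes a protein of the sperm tail and of centrosomes, and 1157 from Lrrc34. The other 27 genes together held 100 UMIs, 18.3 CPM, against 15,749 UMIs and 10,104 CPM in wild-type members. The remaining Mlh3 barcodes held little more spermatid RNA than the members (0.0737 to 0.173%), whereas the remaining wild-type barcodes, which include spermatids, held 3.67 to 6.02%. Members of Cul4a held 1.26 and 1.36%. The source of the spermatid UMIs in wild-type members was not tested. Of the 690 wild-type members, 382 held at most 1% spermatid UMIs, as did all 1053 Mlh3 members, and results are also given for these cells alone.

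X-linked transcripts separated the Mlh3 libraries from each other more than from wild-type. UMIs of X-linked genes came to 1.16, 0.632, 0.751, 0.157, 0.176 and 0.181% of autosomal UMIs in libraries 1 to 6. Libraries 1 to 3 were thus all above libraries 4 to 6, while wild-type libraries ranged from 0.191 to 0.653%. Over all 6 libraries the mean was 0.510 ± 0.410% against 0.337 ± 0.137% in wild-type (two-sided exact permutation test, p = 0.263), so no difference was detected. Among cells with at most 1% spermatid UMIs the wild-type share dropped to 0.122 ± 0.0305% (0.0883 to 0.180%), and the Mlh3 mean was higher by 0.387 points (exact permutation p = 0.000799). With libraries 4 to 6 alone and the same limit, the Mlh3 mean was 0.171 ± 0.0129% and the difference was 0.0492 points. Without the limit, libraries 4 to 6 lay 0.166 points below wild-type. No test is given for these 2 differences, since the libraries were set apart partly by their X-linked share. The direction in libraries 4 to 6 differed with and without the limit on spermatid UMIs, and as background some X-linked genes are transcribed again in spermatids. Cul4a members held 0.375 and 0.431%, and 0.188 to 0.204% under the limit. Y-linked UMIs came to 0.00802% in Mlh3 and 0.00393% in wild-type (exact permutation p = 0.152, adjusted 0.202). Among cells with at most 1% spermatid UMIs the Mlh3 mean was higher by 0.00701 points (exact permutation p = 0.0116), whereas in libraries 4 to 6 with all cells it was lower by 0.00210 points than in wild-type, so the direction was not settled. These values rest on few UMIs. Under the limit the wild-type median was 0, and without it wild-type members held 2 to 16 Y-linked UMIs per library.

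The members fell into 8 subclusters, of which 4 held most cells of libraries 4 to 6. The clustering used the most variable genes of these same cells, which can include those named here, so these are descriptions without a test. Subcluster 6 (106 cells) led with Dazl, Prdx4, Prss50, Tex15 and Rad51ap2, of which the last 3 are leptotene and zygotene markers, and was called leptotene/zygotene-like. The early pachytene list was highest there as well, at 0.944% of UMIs against 0.412 to 0.470% in subclusters 4, 1 and 2, so the name rests on the first list alone. Subcluster 4 (137 cells) led with Chd3os, Stambp, Tex12, Ube2e2 and Nudc. Subcluster 1 (191 cells) led with Wdr66, Fbn2, Rnf168, Mreg and Ubn2, none of which reached a 2-fold difference from the other members, and subcluster 2 (181 cells) with 4930589P08Rik, Pou5f2, Ovol2, 1700108N11Rik and Ccdc178. These last 3 were left without a stage name.

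The other subclusters followed libraries or other cell types. Subcluster 5 (121 cells) led with Lcn2, Akr1cl, Aldh1a1, Gstm1 and Bhmt, and 119 of its cells came from library 1, where it held 69.6% of the members. Of the 8 subclusters it had the highest shares of UMIs on the Leydig (0.940%), Sertoli (0.491%) and macrophage lists (0.154%) and the highest X-linked share (1.55%). Subcluster 3 (179 cells) led with Insl3, Defb19, Fabp3, Apoc1 and Ptgds, genes of Leydig and Sertoli cells, had 0.388, 0.356 and 0.0516% on these 3 lists and held 90.2% of the members of library 3. Subcluster 8 (39 cells) led with Kcnq1ot1, Zfp820, Gm5697, 4632427E13Rik and Clcn2 and held 41.9% of the members of library 2. Subcluster 7 (99 cells) led with Yam1, Hist1h1t, Sepw1, Ndufb4 and Pfdn4, and 68 of its cells came from library 4. Members of libraries 1 to 3 therefore differed in profile from those of libraries 4 to 6 by more than 1 gene group.

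**Figure D2:**
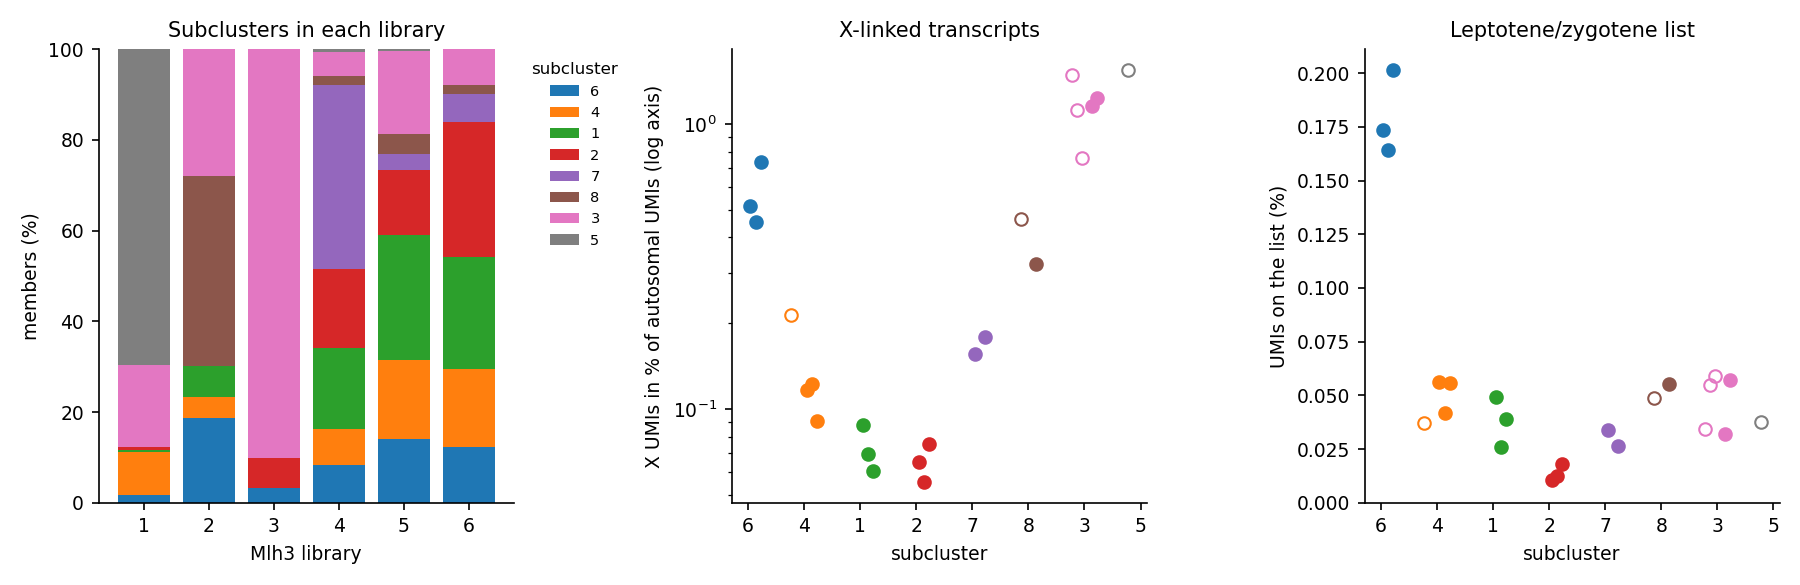
Share of each library's members in each of the 8 subclusters (left, stacked bars from 0), X-linked UMIs in percent of autosomal UMIs by subcluster and library (middle) and percentage of UMIs on the leptotene and zygotene list (right), with open points for libraries 1 to 3. Libraries 1 to 3 lie mostly in subclusters 3, 5 and 8, and the X-linked share of subcluster 6 exceeds that of subclusters 4, 1 and 2.

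X-linked transcripts differed between the subclusters within each of libraries 4 to 6. The leptotene/zygotene-like subcluster 6 held 0.516, 0.453 and 0.737% in libraries 4, 5 and 6. Subcluster 4 held 0.117, 0.123 and 0.0905%, subcluster 1 held 0.0879, 0.0696 and 0.0607%, and subcluster 2 held 0.0652, 0.0553 and 0.0752%. Among these 4, subcluster 6 was thus highest in all 3 libraries, while subclusters 1 and 2 did not keep 1 order. At a doubled resolution, the 2 subclusters with the highest shares on the leptotene and zygotene list (0.288 and 0.108%) differed in X-linked share. The first, of 59 cells, held 1.27% and the second, of 46 cells, held 0.172%. Markers of Sertoli cells moved with the X-linked share, at 0.129, 0.127 and 0.0999% of the UMIs of subcluster 6 against 0.0105 to 0.0294% in subclusters 4, 1 and 2 of these libraries, and their part in it was not tested. Subcluster 3, which like subcluster 5 held many somatic UMIs, had 0.760 to 1.48% in the 5 libraries in which it was measured. Scml2, an X-linked Polycomb gene of spermatogonia, stood at 112 CPM in subcluster 6 and at 0, 1.0 and 1.5 CPM in subclusters 4, 1 and 2 of libraries 4 to 6, and Fmr1, also X-linked, at 143, 0, 0 and 2.3 CPM. Both values in subcluster 6 came mostly from library 6. Scml2 stood at 61.4, 16.9 and 161 CPM there in libraries 4, 5 and 6 (4, 2 and 48 UMIs) and Fmr1 at 92.1, 16.9 and 205 CPM (6, 2 and 61 UMIs).

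Genes of the meiotic programme differed over subclusters 6, 4, 1 and 2, which is the order used here for description. Dmc1, the recombinase of early prophase, stood at 99.6, 5.2, 0.5 and 0 CPM (48, 3, 1 and 0 UMIs), and Meiob, which acts with it on single-stranded DNA, at 286, 32.8 and 18.2 CPM in subclusters 6, 4 and 1. Sycp1 stood at 4255, 1959, 827 and 281 CPM, a wider range than the axis gene Sycp2, at 2438, 2362, 2061 and 1094 CPM. Of the 13 genes of the leptotene and zygotene list with values, 12 were highest in subcluster 6 among these 4 subclusters when libraries 4 to 6 were pooled, but Mei1 and Gm960 rest on a few UMIs and not all fell off as steeply as Dmc1. Hfm1 stood at 467, 276, 203 and 61.3 CPM and Spata22 at 78.8, 60.3, 44.7 and 7.7 CPM. In 1 library Spata22 reached 91.3 CPM in subcluster 4, above the 80.5 CPM that it reached at most in subcluster 6. Ccdc36 was highest in subcluster 2, with 27.0, 17.2, 29.6 and 42.1 CPM.

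Some genes of the later prophase took the opposite order. Ldhc stood at 2504, 6108, 7363 and 9562 CPM. Pgk2, the autosomal copy of the X-linked phosphoglycerate kinase gene, stood at 10.4, 31.0, 66.0 and 229 CPM, and Ccna1, the cyclin A that male meiosis needs, at 4.1, 13.8, 27.0 and 145 CPM (2, 8, 52 and 189 UMIs). The late pachytene list, with Ldhc, rose in this order too (3.52, 5.70, 6.48 and 7.01% of UMIs). The calmodulin gene Calm2 of that list did not, with 3595, 3852, 3525 and 2751 CPM. Nor did the list of entry into division, with Ccna1 (0.379, 0.384, 0.361 and 0.405%). The list of autosomal retrogenes, with Pgk2, took 0.180, 0.204, 0.159 and 0.183% in the members of all libraries. Ldhc, Pgk2 and Ccna1 were highest in subcluster 2, where rule gene Pou5f2 stood at 333 CPM against 2.1 CPM in subcluster 6. The other rule genes split by subcluster as well. Tex101 stood at 2440, 1131, 334 and 131 CPM and Gml at 977, 350, 99.2 and 39.8 CPM, while Piwil1 was highest in subcluster 4 with 2014 CPM and had 917, 1723 and 985 CPM in subclusters 6, 1 and 2. Hspa2, the heat shock protein that late spermatocytes need, varied least, with 1376, 1821, 1488 and 1327 CPM.

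**Figure D3:**
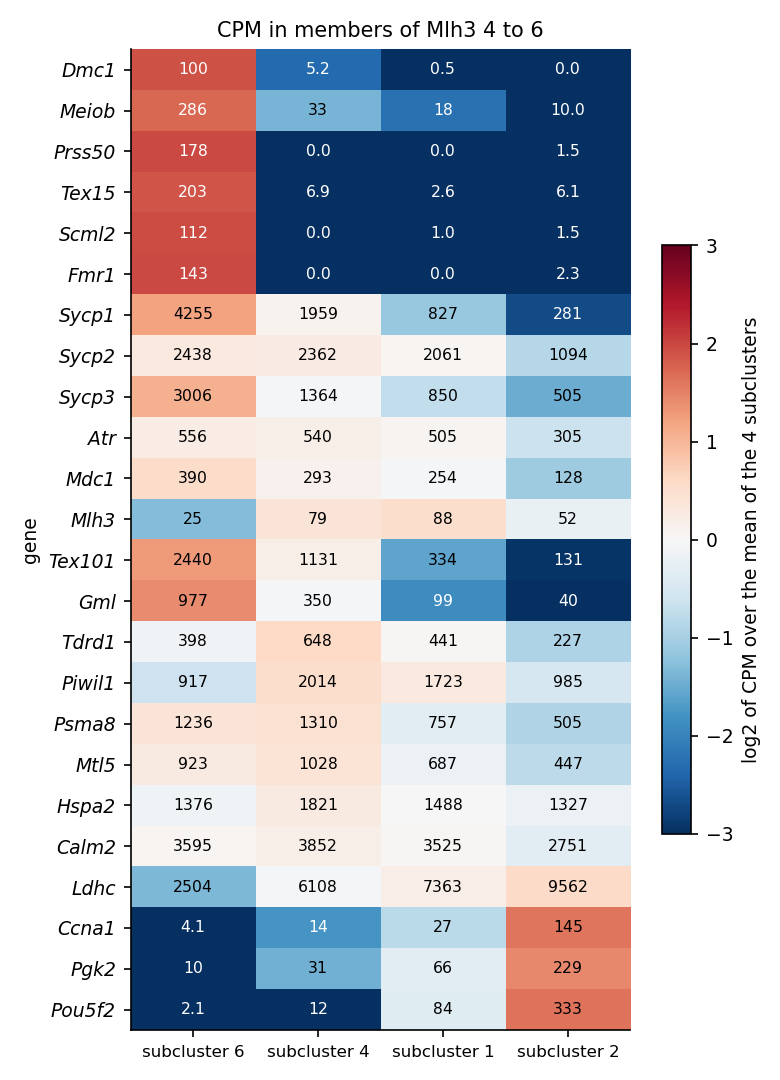
Levels of 24 genes in subclusters 6, 4, 1 and 2 of Mlh3 libraries 4 to 6. Each cell of the map prints the CPM and is coloured by the log2 ratio to the mean over the 4 subclusters. Dmc1, Scml2 and Fmr1 are at or below 5.2 CPM outside subcluster 6, and Ccna1 and Pgk2 are highest in subcluster 2.

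Among the most abundant transcripts of the members were Pabpc1 (mean 6673 CPM over 6 libraries), which binds poly(A) tails, Ldhc (6479 CPM), Lyar (4093), the chaperone Hsp90aa1 (4060), Rsph1 of the radial spoke (3864), the histone chaperone Nasp (3613), the calmodulin gene Calm2 (3069), Fabp9 (3422) and the RNA-binding Ybx1 (2815), all in CPM. None of these 9 genes passed the test between Mlh3 and wild-type members, beside 9.71% of all genes called higher and 10.3% lower. Their log2 differences lay between -0.44 for Ldhc (adjusted p = 0.17) and 0.45 for Hsp90aa1 (adjusted p = 0.075), by edgeR's quasi-likelihood test. Library 2 stood low for Ldhc, with 2112 CPM against 5957 to 8510 CPM in the other Mlh3 libraries.

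Transcripts of the disrupted gene were counted first. Mlh3 (GRCm38 12:85234520-85270599, minus strand) stood at 29.1, 123, 73.4, 85.0, 84.9 and 59.3 CPM in the members of libraries 1 to 6, and between 95.8 and 232 CPM in wild-type members. The wild-type range was reached by 1 Mlh3 library, library 2. The means were 75.8 ± 31.2 (n = 6) and 165 ± 46.0 CPM (n = 9), a log2 difference of -1.21 (SE 0.22, edgeR adjusted p = 7.3e-05), and the Cul4a members held 158 and 142 CPM. Which part of the gene the allele removes is not given in the sources used here, and Drop-seq counts 3′ ends, so these values do not check the label.

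Counts summed over the members of each library were then compared between Mlh3 and wild-type across 12,523 genes, with the rule genes and the mt- genes left out. At an adjusted p under 0.05, 1216 genes were higher in Mlh3 (9.71%) and 1284 lower (10.3%). Without wild-type library 4, 6, 7 or 9 the higher genes numbered 773, 745, 775 and 757. The median log2 difference over all genes was 0.18, so differences are to be read against that value. Without overlap between the libraries of the groups, 180 genes were higher (1.44%) and 470 lower (3.75%). With libraries 4 to 6 and cells with at most 1% spermatid UMIs, 783 of 11,106 genes were higher (7.05%) and 569 lower (5.12%), with a median of 0.14. Of the 1216 higher genes 1087 were tested there and 591 called again, and of the 1284 lower genes 848 were tested and 525 called again. The genes of the spermatid lists were left out of the tests with this limit.

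The lower genes were mostly genes with higher levels in the wild-type barcodes that did not meet the rule. Of the 1284, 1173 were at least 1.5 times as abundant in those barcodes as in the wild-type members, as were 3144 of all 12,523 genes tested, and 10 were at least 1.5 times as abundant in the wild-type members, as were 5744 of all genes. Of the spermatid lists 16 of 17 acrosome genes and 12 of 12 genes of elongating spermatids were lower and none higher. These counts are a description, since 10 and 7 of these genes had no UMI in Mlh3 members and reached the filter on low counts through the other groups alone. Median log2 differences were -6.13 and -8.59, with those genes set at their bound. Prm1, a protamine that packs sperm DNA (GRCm38 16:10796326-10805839), had 1 UMI in all Mlh3 members, in library 3, and 2465 UMIs in wild-type members, where it stood at 612 to 2697 CPM. The ratio of wild-type to Mlh3 was 8626, with a counting interval of 1547 to 340,859. Tnp1, a transition protein that precedes the protamines, had 0 UMIs in Mlh3 and was at least 1962-fold lower than in wild-type, and Smcp, of the sperm mitochondrial capsule, was at least 2341-fold lower, both against a floor of 3 UMIs over the group.

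The genes named next were taken from the lower genes with the smallest adjusted p, so their direction is a description. Spata19, of sperm mitochondria, had 2 UMIs in Mlh3 members (wild-type 71.1 to 326 CPM, ratio 448, interval 123 to 3719), and Fam229a had 3 (ratio 269, interval 91.1 to 1316). Cypt12, of the perinuclear theca, was at least 390-fold lower. Gapdhs, the glyceraldehyde-3-phosphate dehydrogenase of sperm, which stands on the list of elongating spermatids, was at least 686-fold lower. Both had no UMI in Mlh3 members and reached the filter on low counts through the other groups alone. Spz1 and Gsg1, 2 genes of the testis, were lower by 6.05 and 6.33 on the log2 scale. With libraries 4 to 6 and cells with at most 1% spermatid UMIs, Spz1 still differed by -4.19 and Gsg1 by -4.45 (edgeR adjusted p = 1.2e-33 and 2.3e-39). Of the 23 genes of the DUF622 and Ssxb families 16 had no UMI in Mlh3 members. Of the 6 that reached the filter on low counts 4 were among these 16 and reached it through the other groups alone. The rest of the 16 stayed below this filter over all libraries of the fit. Their lack of UMIs in Mlh3 members is therefore no sign of a difference.

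**Figure D4:**
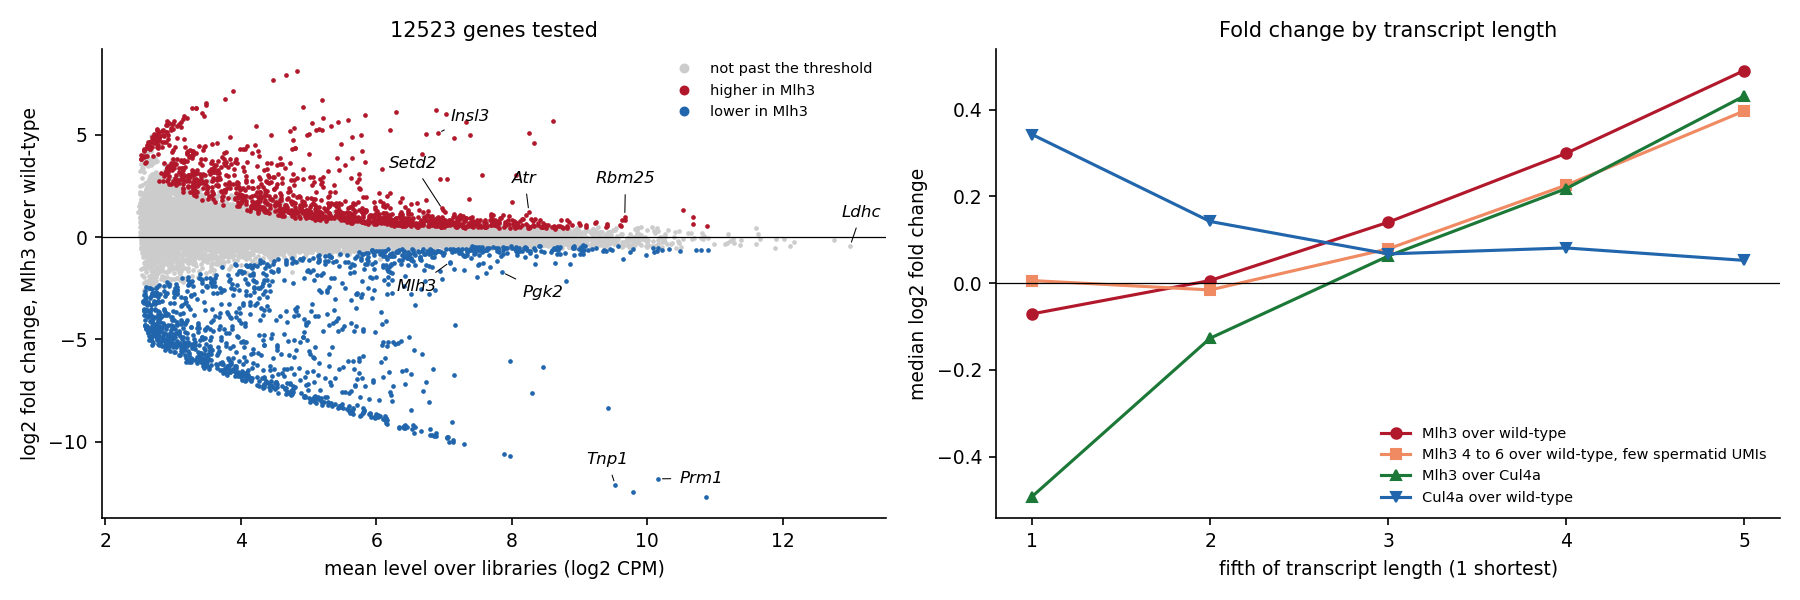
Log2 difference between Mlh3 and wild-type members for each gene against its level, with named genes marked (left), and median log2 difference in 5 groups of genes by transcript length in 4 comparisons (right). The lower genes include the spermatid genes Prm1 and Tnp1 at the bottom, and the median of Mlh3 against wild-type goes from -0.07 in the shortest group to 0.49 in the longest.

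Setd2 and Jmjd1c, both of which act on histones, were taken from the higher genes with the smallest adjusted p whose libraries did not overlap. Their direction, small p and lack of overlap are therefore a description. Setd2, the histone H3 methyltransferase of transcribed genes (GRCm38 9:110532597-110618633), stood at 142, 345, 241, 175, 157 and 180 CPM in libraries 1 to 6 and at 54.7 to 117 CPM in wild-type. All Mlh3 libraries lay above all wild-type libraries, with a log2 difference of 1.34 (SE 0.20, edgeR adjusted p = 5.8e-06) and of 1.08 in libraries 4 to 6 with at most 1% spermatid UMIs. Jmjd1c, of a histone demethylase family (GRCm38 10:67096125-67256326), stood at 107, 288, 157, 164, 116 and 172 CPM against 30.4 to 106 CPM. Its groups did not overlap either, although library 1 lay close to the highest wild-type library, and the log2 difference was 1.64 (SE 0.25, edgeR adjusted p = 5.3e-06) and 1.63 in the restricted cells.

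The other genes taken in this way had varied functions, and their direction and lack of overlap are a description too. Yam1, a long non-coding RNA, stood at 233, 616, 440, 940, 168 and 172 CPM against 21.9 to 79.7 CPM, a log2 difference of 3.04 (SE 0.34) in which library 4 was highest. Syne2, a giant protein of the nuclear envelope, stood at 172, 255 and 136 CPM in libraries 1 to 3 and at 46.7, 49.4 and 65.3 CPM in libraries 4 to 6, all above the wild-type libraries (0 to 31.9 CPM). Dnah7c, a dynein heavy chain, the transcriptional repressor Zbed6, 4932438A13Rik and 9930021J03Rik had log2 differences of 1.31, 1.23, 1.10 and 1.22. Gstm2, a glutathione transferase, and Aldh1a1, which makes retinoic acid, were highest in library 1 (1020 and 1444 CPM) and library 3 (419 and 521 CPM) against 23.3 to 82.2 CPM in the others, and moved with the Leydig genes given below.

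**Figure D5:**
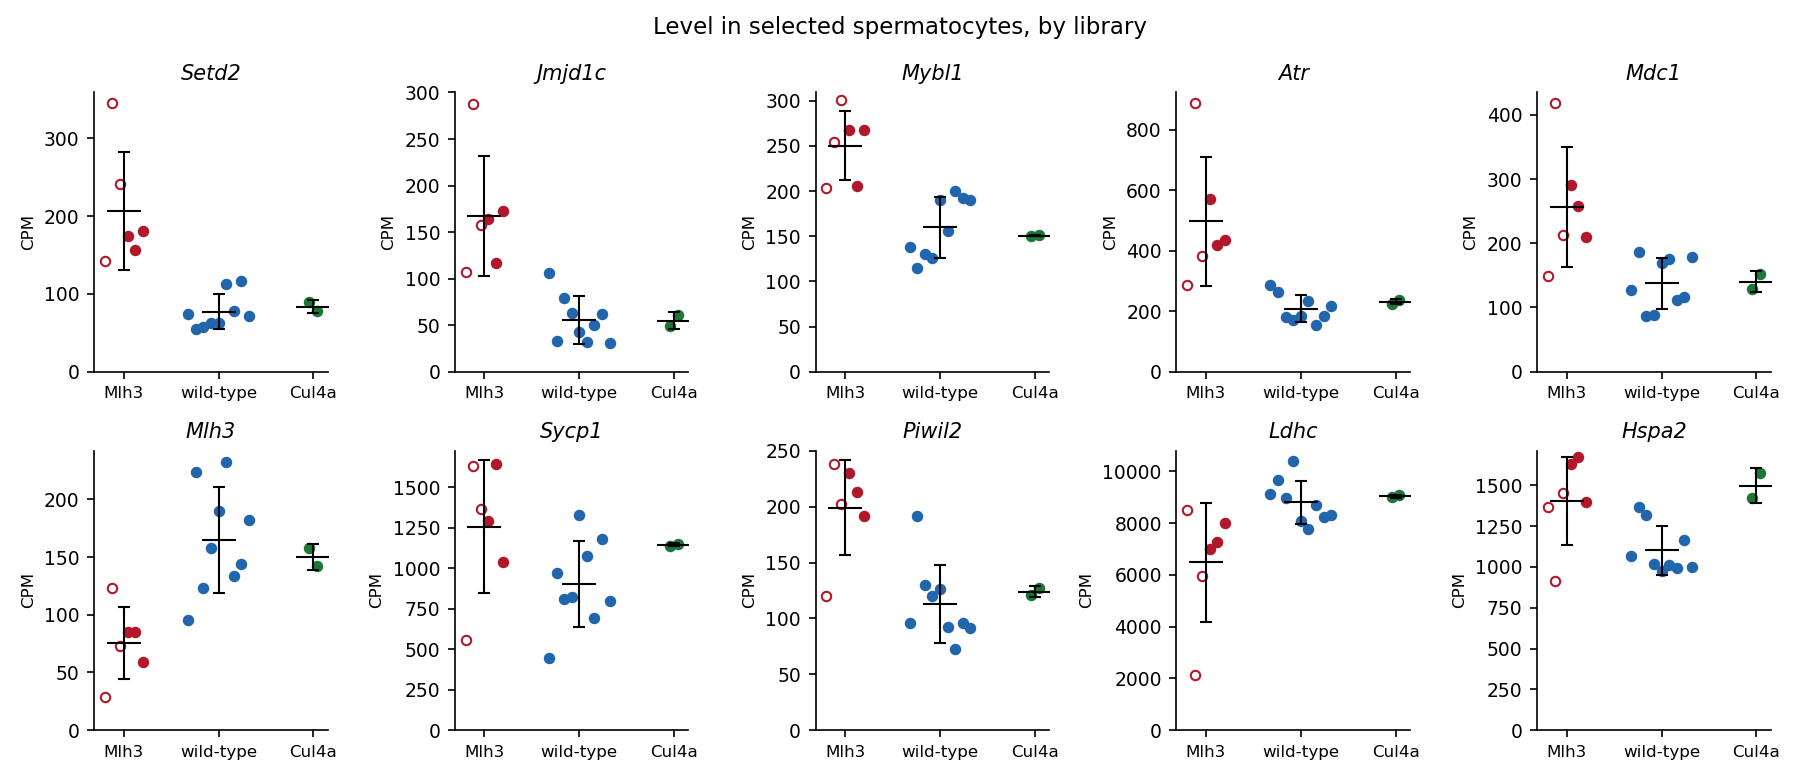
CPM in the members of each library for 10 genes, with bars for the mean ± SD over libraries of Mlh3 (n = 6), wild-type (n = 9) and Cul4a (n = 2), and open points for Mlh3 libraries 1 to 3. Setd2, Jmjd1c and Mybl1 do not overlap between Mlh3 and wild-type, Sycp1, Ldhc and Hspa2 do. Lack of overlap was a criterion by which Setd2 and Jmjd1c were named.

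Higher genes had longer transcripts. The longest annotated transcript had a median of 3.00 kb over all tested genes, 4.24 kb over the higher genes (4.90 kb over those called again in the restricted cells) and 1.90 kb over the lower genes. Transcripts over 5 kb made up 19.6% of the tested, 39.4% of the higher and 10.4% of the lower genes. Over 5 groups of equal size, from the shortest to the longest transcripts, the median log2 difference went from -0.07 through 0.006, 0.14 and 0.30 to 0.49, and from 0.006 to 0.40 in the restricted cells, whereas between Cul4a and wild-type it went from 0.34 to 0.05. Transcripts over 5 kb held 16.9 to 27.2% of the UMIs of Mlh3 members and 16.3 to 30.2% of the UMIs of the other Mlh3 barcodes, against 14.3 to 16.2% and at most 15.2% in wild-type and 13.6 to 13.7% in Cul4a members. Of the CNP members they held 17.3 and 12.4%, the first of which lies inside the Mlh3 range. Of the higher genes named here, Setd2 (8.35 kb), Jmjd1c (8.61 kb), Atr (8.10 kb), Dnah7c (12.2 kb) and Syne2 (21.7 kb) are over 5 kb. So are Mdc1, Zbed6, 4932438A13Rik, 9930021J03Rik, Hfm1, Sycp2, Dnah2, Dnah8, Ccdc88a, Mroh2a and Tdrd6. Shorter ones include Mybl1, Piwil2, Mov10l1, Rbm25, Hsp90b1, Trp53, Gstm2 and Aldh1a1. The difference in length was thus also present in the cells that are not members, and its part in the higher levels of single genes was not tested.

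Among 14 genes that act in crossover formation, 1 was higher (Hfm1) and 1 lower (Mlh3 itself), beside 9.71 and 10.3% of all genes, with a median log2 difference of 0.34 beside 0.18 over all genes. Hfm1, a helicase of crossover formation, stood at 104, 189, 255, 226, 132 and 220 CPM against 72.4 to 186 CPM (log2 difference 0.59, SE 0.20, edgeR adjusted p = 0.039). Msh4 and Msh5, which act before Mlh3, had log2 differences of 0.25 and 0.87 (adjusted p = 0.69 and 0.11). Neither passed the test.

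The genes of the leptotene and zygotene stages numbered 15, of which 13 were tested, 1 was higher (Hfm1, which stands on both lists) and none lower, with a median of 0.50. In all cells of libraries 4 to 6, 1 of 13 was higher and 1 lower, with a median of 0.14, beside 7.16 and 11.5% of all genes. In libraries 4 to 6 with at most 1% spermatid UMIs, 4 of 11 were higher and none lower, with a median of 0.74, beside 7.05% of all genes called higher there. These were Hfm1 (0.62), Dmc1 (2.55, adjusted p = 0.017), Prss50 (2.39, adjusted p = 0.0036), a protease of early prophase, and Zcwpw1 (0.71, adjusted p = 0.013), a reader of PRDM9-marked histones, by edgeR. The limit on spermatid UMIs removed no Mlh3 member, but it lowered the wild-type share of UMIs on this list. That share was 0.0243 to 0.0747% in all wild-type members and 0.0222 to 0.0391% under the limit, and its part in these calls was not tested. Over all libraries and cells Dmc1 and Prss50 had log2 differences of 0.68 and 0.24 with edgeR adjusted p of 0.40 and 0.80. In these comparisons library 2 stood apart, with 65.7 CPM of Dmc1 against 6.66 to 21.0 CPM in the other Mlh3 libraries.

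Of the 8 genes of the synaptonemal complex 1 was higher, Sycp2 (log2 difference 0.62, edgeR adjusted p = 0.021), and 1 lower, Syce2 (-0.86, adjusted p = 0.0011), with a median of 0.15. These shares are near the 9.71 and 10.3% of all genes. Sycp2 stood at 1246 to 3649 CPM in Mlh3 and 884 to 1812 CPM in wild-type, and Syce2, of the central element, at 83.8 to 115 and 117 to 282 CPM. In the restricted cells neither passed (Sycp2 0.41, adjusted p = 0.059, Syce2 -0.22, adjusted p = 0.52), while Sycp1 did (0.56, adjusted p = 0.006). Among 6 genes of meiotic cohesin 1 was lower, Rec8, which had 0 UMIs in Mlh3 members and 11 in wild-type members and was at least 12.8-fold lower. It reached the filter on low counts through the other groups alone, so its call could go 1 way only. Rec8 stood at 43.6 CPM in the other wild-type barcodes, more than in the members. Smc1b and Stag3 had log2 differences of 0.23 and 0.28 that did not pass.

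The list of checkpoint and apoptosis genes held 3 higher and 1 lower gene among 15 tested, beside 9.71 and 10.3% of all genes, with a median of 0.04. Atr, the kinase that responds to unsynapsed and damaged DNA (GRCm38 9:95857597-95951781), stood at 285, 888, 381, 571, 419 and 435 CPM against 156 to 288 CPM in wild-type, so that 1 library, library 1, touched the wild-type range. The log2 difference was 1.23 (SE 0.20, edgeR adjusted p = 1.9e-05), and 1.08 in the restricted cells. Mdc1, which spreads the damage mark over the silenced sex chromosomes, stood at 149, 419, 213, 292, 258 and 210 CPM against 86.9 to 186 CPM (0.83, adjusted p = 0.0037, and 0.68 in the restricted cells).

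Other genes of this list differed in their calls. Topbp1, which activates ATR, and H2afx, the histone that carries the mark, had log2 differences of 0.20 and 0.04 and did not pass. Trp53, the gene for p53, was higher with all libraries (1.30, edgeR adjusted p = 0.034) and stood at 38.4 to 61.5 CPM in libraries 1 to 3, but at 13.3 to 25.3 CPM in libraries 4 to 6 against 0 to 22.2 CPM in wild-type, and did not pass in the restricted cells (0.70, adjusted p = 0.33). Bcl2l11, a promoter of apoptosis, was lower (-2.62, adjusted p = 0.024), with UMIs in libraries 3 and 6 alone, and stood at 43.6 CPM in the other wild-type barcodes. None of 4 tested genes of the stress and immediate early response passed in either direction, beside 9.71% of all genes called higher and 10.3% lower.

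Several genes of the mid pachytene list were higher in Mlh3. Of 14 tested, 8 were higher and none lower, with a median of 0.62, against 9.71% of all genes called higher. Rbm25, a splicing factor, stood at 550 to 2737 CPM against 437 to 861 CPM (log2 difference 1.00, edgeR adjusted p = 0.0024), and Mroh2a, Dnah2, a dynein heavy chain, and Ccdc88a, an actin-binding protein, had log2 differences of 1.14, 0.81 and 0.70. In the restricted cells these 4 genes and no others of the list were called, beside 7.05% of all genes called higher there. Library 2 held the highest value of Rbm25 and of Ccdc88a, and the list holds long genes. The study also names Rbm25 in a component that it labels a batch effect. Subcluster 8 held the highest share of UMIs on the list, at 1.57% against 0.192 to 0.533% in the other subclusters. The study chose these stage lists on data of this series, so they are not independent evidence of a direction.

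In the early and late pachytene lists the shares of called genes were near or below the 9.71 and 10.3% of all genes. Of 8 early genes, Hsp90b1, a chaperone of the endoplasmic reticulum, was higher (0.56) and Zpbp, of the acrosome, lower (-0.86), and both calls were made in the restricted cells too (0.48 and -0.66). Of 26 late genes 1 was higher and 2 were lower, with a median of -0.25. The higher gene was Dnah8, a dynein heavy chain of the flagellum, at 900, 1594, 1139, 1158, 1030 and 1324 CPM against 543 to 1097 CPM (0.83, edgeR adjusted p = 0.00083). Dkkl1, a secreted protein of the acrosome, and Spink2, a protease inhibitor of the acrosome, were lower (-0.65 and -0.69), with libraries 1 to 3 lowest. Hspa2 had a log2 difference of 0.36 (adjusted p = 0.10).

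In the piRNA pathway 4 of 17 genes were higher and 1 was lower, beside 9.71 and 10.3% of all genes, with a median of 0.32. Mybl1, which encodes A-MYB (GRCm38 1:9667415-9700209), stood at 204, 255, 300, 267, 205 and 268 CPM against 115 to 200 CPM, without overlap (log2 difference 0.64, SE 0.16, edgeR adjusted p = 0.0037). Piwil2, a piRNA-binding partner of Piwil1, stood at 120 to 238 CPM against 72.3 to 191 CPM (0.82, adjusted p = 0.002), and the helicase gene Mov10l1 and the Tudor gene Tdrd6 differed by 0.58 and 0.42. Gtsf1, a zinc finger protein of the pathway, was lower (-0.82, adjusted p = 0.0036) but was not called in the restricted cells (-0.33, adjusted p = 0.17).

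Of 18 genes of entry into division none was higher and 3 were lower with all libraries and cells, beside 9.71 and 10.3% of all genes, with a median of -0.44. Ccnb2, a B-type cyclin, stood at 107 to 252 CPM in Mlh3 and at 211 to 316 CPM in wild-type (-0.53, edgeR adjusted p = 0.023), and Cdc25a, the phosphatase that activates cyclin kinases, and Plk1, a kinase of the division, differed by -0.88 and -1.04 (adjusted p = 0.022 and 0.046). With libraries 4 to 6 and all cells 6 of 18 were lower and 2 higher, beside 11.5 and 7.16% of all genes. In the restricted cells 3 of 17 were lower and 1 higher, Cks2, beside 5.12 and 7.05%. Those lower were Ccnb2 (-0.49), Ccna1 (-0.68, adjusted p = 0.019) and Ccnb1 (-1.28, adjusted p = 0.021), the genes of the cyclins that accompany the first division. In all cells Ccna1 differed by -0.55 (adjusted p = 0.093) and Ccnb1 by -0.69 (adjusted p = 0.32).

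The lists of energy metabolism, autosomal retrogenes and X-linked parents were read beside the 9.71 and 10.3% of all genes called. None of 39 genes of respiration passed in all cells, with a median of -0.01, and 2 were higher in the restricted cells, beside 7.05% of all genes. Of 5 tested autosomal retrogenes, which replace X-linked parent genes during silencing, 1 was lower, Pgk2. It stood at 123, 24.7, 108, 90.8, 90.8 and 122 CPM against 212 to 521 CPM, without overlap, with a log2 difference of -1.71 (SE 0.22, edgeR adjusted p = 3.4e-07) and of -0.75 in the restricted cells. Other wild-type barcodes held 1048 CPM of it. Of 4 tested X-linked parents, Rpl10 and Rpl39 were higher (5.00 and 2.93), and both were highest in libraries 1 to 3. Rpl10 stood at 333, 16.4 and 73.4 CPM there and at 5.83 to 11.8 CPM in libraries 4 to 6, against 0 to 10.6 CPM in wild-type. Neither passed in the restricted cells (differences of 2.20 and 0.80), which is a description, since libraries 4 to 6 were set apart partly by their X-linked share.

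X-linked genes as a whole followed the shares given above. Of 317 tested, 71 were higher and 71 lower in all cells, beside 9.71 and 10.3% of all genes. With at most 1% spermatid UMIs 97 were higher and 22 lower of 237, beside 8.06 and 5.02%, and with libraries 4 to 6 besides 44 were higher and 22 lower of 176, beside 7.05 and 5.12%. In all cells of libraries 4 to 6, 19 were higher and 89 lower of 271, beside 7.16 and 11.5%. The counts with libraries 4 to 6 are a description, since these libraries were set apart partly by their X-linked share.

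Markers of somatic cells moved with the Mlh3 libraries. All 7 Leydig and all 10 Sertoli genes tested were higher in Mlh3, with medians of 5.01 and 2.27, as were 3 of 4 macrophage and 4 of 5 telocyte genes, beside 9.71% of all genes, and no gene of these 4 lists was at 0 in all Mlh3 members. The telocyte gene Pdgfra had no UMI in wild-type members and reached the filter on low counts through the other groups alone, so its call could go 1 way only. The Leydig list took 0.742, 0.0587, 0.308, 0.0128, 0.0224 and 0.0147% of the members' UMIs in libraries 1 to 6, against 0.000722 to 0.0157% in wild-type and 0.0196 to 0.0221% in Cul4a. The Sertoli list took 0.343, 0.143, 0.277, 0.0492, 0.0522 and 0.0429%, against 0.0126 to 0.0486%, and the macrophage list 0.00272 to 0.111% against 0 to 0.00714%. Insl3, the hormone of Leydig cells, stood at 1123, 90.4 and 458 CPM in libraries 1 to 3 and at most 73.0 CPM in libraries 4 to 6, against 0 to 42.6 CPM, and at 932 CPM in the other Mlh3 barcodes. Members with at least 1% of their UMIs on the Leydig list numbered 83, and 18 had as many on the Sertoli list. In the restricted cells 4 of 6 Leydig and 10 of 10 Sertoli genes were still higher (medians of 2.22 and 1.75), beside 7.05% of all genes. These counts are a description, since libraries 4 to 6 were set apart partly by their somatic UMIs. Of 8 tested spermatogonial genes 2 were higher, with a median of 1.48, beside 9.71% of all genes. With all cells of libraries 4 to 6 none of 7 was higher (median of 0.39), beside 7.16%. In the restricted cells 1 of 5 was higher (median of 1.24), beside 7.05%. With the limit on spermatid UMIs alone 4 of 6 were higher (median of 1.94), beside 8.06%. The part of somatic RNA in the other results was not tested.

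The Cul4a testes offer the comparison with the labelled background held in common, but they are mutant too and not a control. The study cites work in which some Cul4a-/- spermatocytes arrested at pachytene, and saw fewer post-meiotic cells in its own sections. The Cul4a testes gave 746 members from 5673 barcodes of sufficient quality, in 2 libraries, so the spread comes from the fit shared with the other strains. Of 12,523 genes, 360 were higher in Mlh3 than in Cul4a members (2.87%) and 1204 lower (9.61%). Without Cul4a library 1 there were 28 higher and 707 lower genes, and without library 2 there were 30 and 806. Between Cul4a and wild-type members, which share the wild-type libraries with the first comparison, 43 genes differed (0.343%), 36 higher and 7 lower, and 1304 had an unadjusted p under 0.05. DESeq2 called 51 higher and 94 lower genes, 387 genes differed with HiSeq libraries only, and without Cul4a library 1 or 2 there were 13 and 10.

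Jmjd1c, Atr and Setd2 were higher than in Cul4a members as well. Their transcripts are long (8.61, 8.10 and 8.35 kb). From the shortest to the longest group of transcripts, the median log2 difference of Mlh3 over Cul4a went from -0.49 to 0.43. The part of length in these calls was not tested. Jmjd1c stood at 48.6 and 61.1 CPM in Cul4a (log2 difference of Mlh3 over Cul4a 1.54, edgeR adjusted p = 0.00093), Atr at 225 and 237 CPM (1.07, adjusted p = 0.014) and Setd2 at 89.5 and 77.6 CPM (1.23, adjusted p = 0.0018). Mdc1 (0.83, adjusted p = 0.062) and Piwil2 (0.68, adjusted p = 0.093) did not pass, while Mybl1 (0.73, adjusted p = 0.03), Yam1 (2.75), Syne2 (2.83) and Dnah8 (1.27) did. Mlh3 itself (-1.04, adjusted p = 0.0075), Pgk2 (-1.28) and Syce2 (-1.41) were lower than in Cul4a.

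The comparison with Cul4a uses the same Mlh3 libraries as the one with wild-type, so the calls are given side by side only. With all Mlh3 libraries the counts of the lists stand beside 2.87% of all genes higher and 9.61% lower. Of the mid pachytene genes 5 of 14 were higher and none lower, with a median of 1.02. The 16 of 17 acrosome and 11 of 12 elongating spermatid genes that were lower are a description, for the reason given above (10 and 7 genes without a UMI in Mlh3 members). Of the synaptonemal complex genes 2 were lower, in the piRNA pathway 2 were higher and 1 lower, of the late pachytene list 1 was higher, and the leptotene and zygotene list and the division list had no call. With libraries 4 to 6, where 7.43% of all 12,046 genes were higher and 14.4% lower, the mid pachytene list had 10 higher genes, the division list 2 lower, the synaptonemal complex 1 higher and 3 lower, and the leptotene and zygotene list 1 higher and 3 lower of 13, with a median of -0.66. The last 3 were Dmc1 (-1.20, adjusted p = 0.0093), Prss50 (-1.69) and Tex15 (-1.23), so Dmc1 and Prss50 were lower than in Cul4a although they were higher than in wild-type in the restricted cells. Of 7 Leydig genes 5 were higher with all Mlh3 libraries, and with libraries 4 to 6 none of 6 was higher and 1 was lower. Of the 10 Sertoli genes 3 were higher with all Mlh3 libraries and none with libraries 4 to 6. Of 5 telocyte genes 2 were higher with all Mlh3 libraries and 3 with libraries 4 to 6 (median of 1.99). The somatic counts with libraries 4 to 6 are a description, since somatic UMIs helped to set these libraries apart. The differences in Jmjd1c, Atr and Setd2 over Cul4a were 1.49, 1.06 and 1.05 with libraries 4 to 6 alone (adjusted p = 7.0e-07, 4.9e-05 and 3.2e-05), and the part of somatic RNA in them was not tested.

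Some of the genes with the smallest adjusted p against Cul4a also differed between Cul4a and wild-type. Grtp1 (GRCm38 8:13172022-13200620) stood at 147 to 294 CPM in Mlh3 and 246 to 351 CPM in wild-type, but at 0.648 and 0.719 CPM in Cul4a (log2 difference of Cul4a from wild-type -8.31), and Dapp1 and Wdr16 were likewise lower in Cul4a than in wild-type (-5.16 and -1.76). Rps13-ps1, a ribosomal pseudogene that shares sequence with its parent, stood at 394 and 357 CPM in Cul4a and at 0 to 0.430 CPM in Mlh3. In contrast Btaf1 (1.60), a regulator of TATA-binding protein, Mtif2 (1.43), a mitochondrial initiation factor, Arfgef1 (1.44), Trim24 (1.28), the spindle checkpoint kinase Ttk (1.22) and the nucleoporin Ahctf1 (1.30) were higher in Mlh3 than in Cul4a and, with smaller differences of 0.71, 0.61, 1.03, 0.50, 0.65 and 1.07, also than in wild-type.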

How the data were processed

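The authors dissociated testes, prepared Drop-seq libraries, ran the Drop-seq pipeline with STAR 2.5.3a on mm10 (GRCm38) and deposited UMI counts per gene and barcode for each library, without normalization. Another mutant was not analysed here. The members and gene lists were chosen with earlier results of these data known.

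Of the 29,244 gene symbols, 26,843 matched GENCODE vM21 and 956 RefSeq names, and 1445 were unmatched (0.643% of the members' UMIs). Counts of the selected barcodes were summed per library with at least 10 of them. The Mlh3, mechanical wild-type, Cul4a and CNP libraries shared 1 fit of edgeR's quasi-likelihood test (TMM factors, Benjamini-Hochberg adjustment, threshold 0.05) on the genes that reached 20 counts in total. The rule genes and mt- genes were left out of the tests, and the genes of the spermatid lists also from those with at most 1% spermatid UMIs. CPM of the members of a library are counts per 1,000,000 UMIs, with library sizes scaled by the TMM factors. CPM of subclusters, other barcodes, barcodes near the rule limits and summed spermatid genes are not scaled by these factors. Shares of UMIs were compared by two-sided exact permutation of the library labels over 5005 splits of 6 and 9 libraries, and adjusted over 4 tests that included the share of barcodes, for which no p is given. Counts of 1 to 3 UMIs are given as a ratio with a 95% counting interval, and genes without a UMI against a floor of 3 UMIs over the group. Both cover counting error only. Gene levels in CPM are not corrected for length. Members were clustered on 2000 variable genes, 20 principal components and 15 neighbours by the Leiden algorithm at a resolution of 0.5. No doublet caller was run. The procedures were tested on simulated counts.

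The genes named are the rule genes, members of the lists described, the 12 higher and 12 lower genes per comparison with the smallest adjusted p whose libraries do not overlap, the 10 most abundant genes, the 5 leading genes of each subcluster and Mlh3. Of the 12 per direction and the other groups, some are given by count or not reported here. Scml2, Fmr1 and the other genes of the map of stages belong to lists or were chosen for it after their values were seen. Gene groups were spermatogonia, leptotene and zygotene, synaptonemal complex, cohesin, crossover, early, mid and late pachytene, piRNA pathway, division entry, DUF622 and Ssxb, checkpoint, stress, X-linked parents, retrogenes, respiration, acrosome, elongating spermatids, Sertoli, Leydig, macrophage, telocyte, erythroid cells and ribosomal genes of a batch component of the study.

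The alternatives were DESeq2, RLE factors, other filters on low counts, stricter rule limits, at most 1% spermatid UMIs, cells thinned to 500 UMIs, at least 1000 UMIs per barcode or the enzymatic wild-type libraries added for the share of barcodes, HiSeq libraries only, at least 50 barcodes per library, only the groups compared, a replicate block, libraries 2 and 3 of Mlh3 merged, each library left out, Mlh3 libraries 4 to 6, and the share of all barcodes, of which the last 2 were chosen after seeing the data. Mlh3 libraries 1 and 2 and wild-type library 3 were sequenced on a MiSeq and the others compared on a HiSeq.

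Gene tests were run in R 4.3.3 (edgeR 4.0.16, limma 3.58.1, DESeq2 1.42.0), clustering with leidenalg 0.10.2 and igraph 0.11.9, and the remaining steps in Python 3.11.15 with pandas 2.3.3, scipy 1.17.1 and numpy 2.4.6.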

Additional observations from a re-analysis of the deposited data

Results flagged for a closer look

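A library was singled out where its gap to the nearest other library of its group exceeded Dixon's 95% critical value for the group's size. This was the case 36 times in 184 groups tested, with the same library counted more than once. The critical value allows about 1 in 20 groups by chance if values are normal and groups independent. Here the groups shared their libraries, and in some all other libraries held 0, so this rate is no measure of chance. All values are CPM in the members unless stated, with the range of the group's other libraries after it.

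Mlh3 library 2, which had 43 members and was sequenced on a MiSeq, was singled out most often. It was high for the early prophase genes Dmc1 (65.7 against 6.66 to 21.0), Prss50 (115 against 5.00 to 38.8) and Tex15 (238 against 11.7 to 61.5). It was also high for Rbm25 (2737 against 550 to 1321), Ccdc88a (1003 against 275 to 503), Hsp90b1 (3509 against 1635 to 2250), Jmjd1c (288 against 107 to 172), Zbed6 (247 against 125 to 156), Ttk (173 against 116 to 127) and Tnp2 (24.7 against 0 to 3.87), and low for Zpbp (74.0 against 183 to 213) and Pgk2 (24.7 against 90.8 to 123).

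The other Mlh3 libraries were singled out for fewer genes. Library 1 was high for Aldh1a1 (1444 against 23.3 to 521), Rpl10 (333 against 5.83 to 73.4) and Prm2 (3.24 against 0, 1 UMI) and low for Mtif2 (162 against 194 to 210). Library 3 was high for Bcl2l11 (10.5 against 0 to 0.859), Prm1 (3.49 against 0, 1 UMI) and Fam229a (3.49 against 0 to 0.987). Library 5 was low for Cdc25a (19.7 against 24.5 to 26.7), and library 6 had 0.430 of Rps13-ps1 against 0 in the others.

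In wild-type, library 5 had the highest X-linked share (0.653% of autosomal UMIs against 0.191 to 0.400%) and was high for the spermatid genes Smcp (3149 against 585 to 1501) and 2610318N02Rik (478 against 126 to 259), for Msh4 (65.2 against 10.6 to 33.4) and for Clu (174 against 32.8 to 101), and low for Rsph1 (3062 against 3980 to 4594). Library 3 was high for Hsp90aa1 (4569 against 2383 to 3281), Dnah8 (1097 against 543 to 721), Ccnb1 (85.2 against 12.6 to 43.7), Plk1 (74.5 against 22.2 to 40.0) and Rps13-ps1 (10.6 against 0). Library 11 was high for Prss50 (72.1 against 5.47 to 24.0) and Tex15 (167 against 13.7 to 77.3), library 4 for Piwil2 (191 against 72.3 to 130) and library 8 for Smc1b (797 against 536 to 619).

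Barcodes over the limit on mitochondrial UMIs entered no comparison. Of 2857 such Mlh3 barcodes, 486 met the limits on the rule genes (17.0%, and 7.69 to 22.6% per library). Wild-type libraries held 0 to 13 such barcodes each, 1 of 20 in all, too few to compare.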

How the results depend on the processing

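The share of barcodes kept its direction under every alternative run, but its difference of 35.8 points was 10.02 under the stricter rule and 10.97 as a share of all barcodes. The spermatid difference kept its direction and its side of the threshold, at -0.604 points under the stricter rule and -1.79 thinned. The X-linked difference of 0.173 points was 0.387 with at most 1% spermatid UMIs and 0.0492 with Mlh3 libraries 4 to 6 besides, -0.0240 on HiSeq and -0.166 with libraries 4 to 6. The Y-linked difference was -0.000155 thinned, 0.00701 with at most 1% spermatid UMIs, -0.000385 on HiSeq and -0.00210 with libraries 4 to 6. At a doubled resolution there were 13 subclusters. Against wild-type, 2500 genes passed by the settings reported, with 979 higher and 1415 lower by RLE factors and 913 and 1423 by DESeq2. The total was 1370 with edgeR's own filter, 675 under the stricter rule, 1524 with at most 1% spermatid UMIs, 1352 with libraries 4 to 6 besides and 1067 thinned. Leaving out 1 library gave 2045 to 2480. Against Cul4a, 1564 genes passed, 892 with edgeR's own filter, 954 with at most 1% spermatid UMIs, 709 thinned, 1026 with only those groups, 2625 with libraries 4 to 6 and 735 to 1953 without 1 library. Between Cul4a and wild-type, 43 passed, 145 by DESeq2, 25 with edgeR's own filter, 306 without a filter, 184 under the stricter rule, 12 thinned, 90 with at least 50 barcodes, 387 on HiSeq and 10 to 50 without 1 library. The causes were not tested. A replicate block gave 1237, 1425 and 146 genes for these comparisons. The numbers did not pair the libraries (correlations of -0.134 to 0.0673 between equal numbers).

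Reversed were, against wild-type, Tex15 (1.78 with at most 1% spermatid UMIs) and Cdc25a (0.54 under the stricter rule) and, against Cul4a, Gstm2 (-0.062) and Clu (-0.034) with libraries 4 to 6 and Rpl39 (-2.01 under the stricter rule and -1.45 with libraries 4 to 6). Of 88 genes named, 33 lost their call against wild-type under some alternative and 12 gained one. Wild-type libraries 1 and 2 could not be added to the gene, X, Y and spermatid results, since they hold 1 and 5 members. Low counts limit single genes, for example in the 43 members of Mlh3 library 2.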
